A study of Mus musculus with 9 samples.

Results

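Collagen and laminin genes were taken as every row of the organoid count table whose symbol is Col, a number, a and a number, or Lam, one of the letters a, b and c, and a number. This gave 55 genes, 44 collagens and 11 laminins, of 23955 rows. RNA-seq had been performed on 9 mouse gut organoid samples in 3 groups of 3 biological replicates. MIN organoids came from normal gut epithelium of APCmin/+ mice beside the adenomas, and Adenoma organoids from adenomatous polyps of such mice. Sulindac organoids were polyp organoids treated with the non-steroidal anti-inflammatory drug (NSAID) sulindac. All 3 groups thus carry the germline Apc mutation and were grown in a medium with Noggin, EGF, bFGF, R-spondin1 and B27. The dose and duration of sulindac in these cultures and the strain and age of the mice are not given in the sources used here. Neither wild-type organoids nor sulindac-treated MIN organoids were analysed here.

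Collagens are proteins of 3 intertwined chains. Type IV collagen forms the sheet-like network of the basement membrane, the thin layer of matrix on which gut epithelium rests, whereas the fibrillar collagens of the stroma are made mainly by fibroblasts. Laminins are trimers of 1 alpha, 1 beta and 1 gamma chain, and they assemble the other network of the basement membrane. Lama3 and Lamb3 encode chains of the laminin that anchors epithelial cells through hemidesmosomes, here called the anchoring laminin. Lama5 and Lamc1 join with either Lamb1 or Lamb2 in the main structural laminins of the intestinal basement membrane. RNA-seq counts report transcripts and not the matrix that cells deposit.

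Each sample held between 30881206 and 48412477 counts. The members took 0.0299% to 0.0556% of the counts in MIN, 0.1031% to 0.1073% in Adenoma and 0.0973% to 0.1495% in Sulindac, so that both adenoma groups lay above MIN without overlap. Values are given as raw counts or as CPM, which are counts scaled to a common library size after normalization for library composition (TMM), with mean ± SD over n = 3. A floor of 3 counts lies between 0.0641 and 0.10 CPM. Levels of different genes are compared as CPM per kilobase of merged exons. Shares of all member counts and ratios of counts between genes are not corrected for gene length. MIN replicate 3 and Adenoma replicate 3 stood further from their groups than the other samples did (root mean square log2 difference over 13892 genes 0.378 and 0.412 for MIN replicate 3, against 0.239 between the others, and 0.389 and 0.399 for Adenoma replicate 3, against 0.287). In bulk samples such as these, fewer cells of a type and less RNA per cell cannot be told apart.

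Of the 55 members, 10 had 0 counts in all 9 samples: Col1a2, Col3a1, Col5a2, Col5a3, Col6a3, Col6a4, Col13a1, Col24a1, Lama1 and Lama2. A further 23 had too few counts to be tested in any comparison, at most 16 in a sample (Col28a1). They were Col4a4, Col4a5, Col4a6, Col5a1, Col6a1, Col6a2, Col6a5, Col6a6, Col8a1, Col8a2, Col9a2, Col10a1, Col11a1, Col12a1, Col15a1, Col17a1, Col19a1, Col22a1, Col23a1, Col25a1, Col28a1, Lama4 and Lamc3. The remaining 22 were tested in at least 1 of the 3 comparisons and 18 of them in all 3. Most members of the stromal families were thus at or near 0, among them 7 of the 11 fibrillar collagens, which never exceeded 1 count.

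The comparison of Adenoma with MIN asks which of these genes differ between tumor and adjacent epithelium. With edgeR's quasi-likelihood test at a false discovery rate (FDR) of 1%, adjusted by Benjamini-Hochberg over all 13744 genes tested and called the edgeR test below, 9 of the 22 members tested were higher in Adenoma (40.9%, against 18.5% of all genes) and 4 were lower (18.2%, against 20.1% of all genes). The median log2 fold change of the members tested was 1.32, against -0.01 for all genes. It was 0.60 without Adenoma replicate 3, 0.87 without MIN replicate 2, 1.6 without MIN replicate 3 and 0.82 without the low-count filter. Col14a1, Col16a1, Col1a1, Col26a1, Col2a1 and Col9a1 passed the filter on low counts through 1 group alone, and 5 of these 6 were called, so that the share of members called carries this selection. The genes higher in Adenoma were the type IV collagen genes Col4a1 and Col4a2, Col18a1, Lama5, Lamb2 and 4 collagens at low level. The genes lower in Adenoma were Lamb1, Lamb3, Col26a1 and Col9a1.

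Col4a1 and Col4a2 encode the 2 chains of the most common type IV collagen trimer. In replicates 1 to 3, Col4a1 measured 4.62, 2.67 and 0.926 CPM in MIN, 47.3, 31 and 35.3 CPM in Adenoma, and 49.9, 30.2 and 39.7 CPM in Sulindac. Col4a2 measured 3.43, 1.41 and 0.627 CPM in MIN, 35.0, 22.1 and 28.9 CPM in Adenoma, and 70.6, 40.1 and 62.7 CPM in Sulindac. Every Adenoma and Sulindac sample lay above every MIN sample for both genes. From MIN to Adenoma, Col4a1 rose by 3.78 ± 0.46 on the log2 scale (SE; edgeR test, adjusted p = 0.000177) and Col4a2 by 3.97 ± 0.50 (edgeR test, adjusted p = 0.000214), which is 13.8-fold and 15.7-fold. Both calls held when any 1 of the 6 samples was left out, and Col4a2 was at 4.77 without MIN replicate 1. Of the other type IV chains, which build the networks of kidney and other specialized basement membranes, only Col4a3 was tested, with 0.14 ± 0.38 (SE; edgeR test, adjusted p = 0.782) and 18 to 34 counts per sample in MIN and Adenoma. Col4a4, Col4a5 and Col4a6 had at most 10, 6 and 4 counts.

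Col18a1 encodes a basement membrane collagen whose C-terminal fragment is endostatin. It measured 1.41, 0.834 and 3.24 CPM in MIN and 73.2, 91.1 and 84.6 CPM in Adenoma. This was a rise of 5.53 ± 0.41 on the log2 scale, or 46.3-fold (SE; edgeR test, adjusted p = 9.33e-06), the largest fold among the members called higher. Without MIN replicate 3 it was 6.22. In Sulindac it measured 122.0, 111.8 and 112.7 CPM. Per kilobase, Col18a1 was at 11.8 ± 1.29 CPM in Adenoma (SD, n = 3), above Col4a1 with 5.08 ± 1.13 and Col4a2 with 4.33 ± 0.976 in all 3 samples, whereas the ranges of Col4a1 and Col4a2 overlapped. Col18a1 has annotated starts 52825 bases apart that give different isoforms, and gene counts do not tell them apart. Its close relative Col15a1 had at most 6 counts in any sample.

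**Figure D1:**
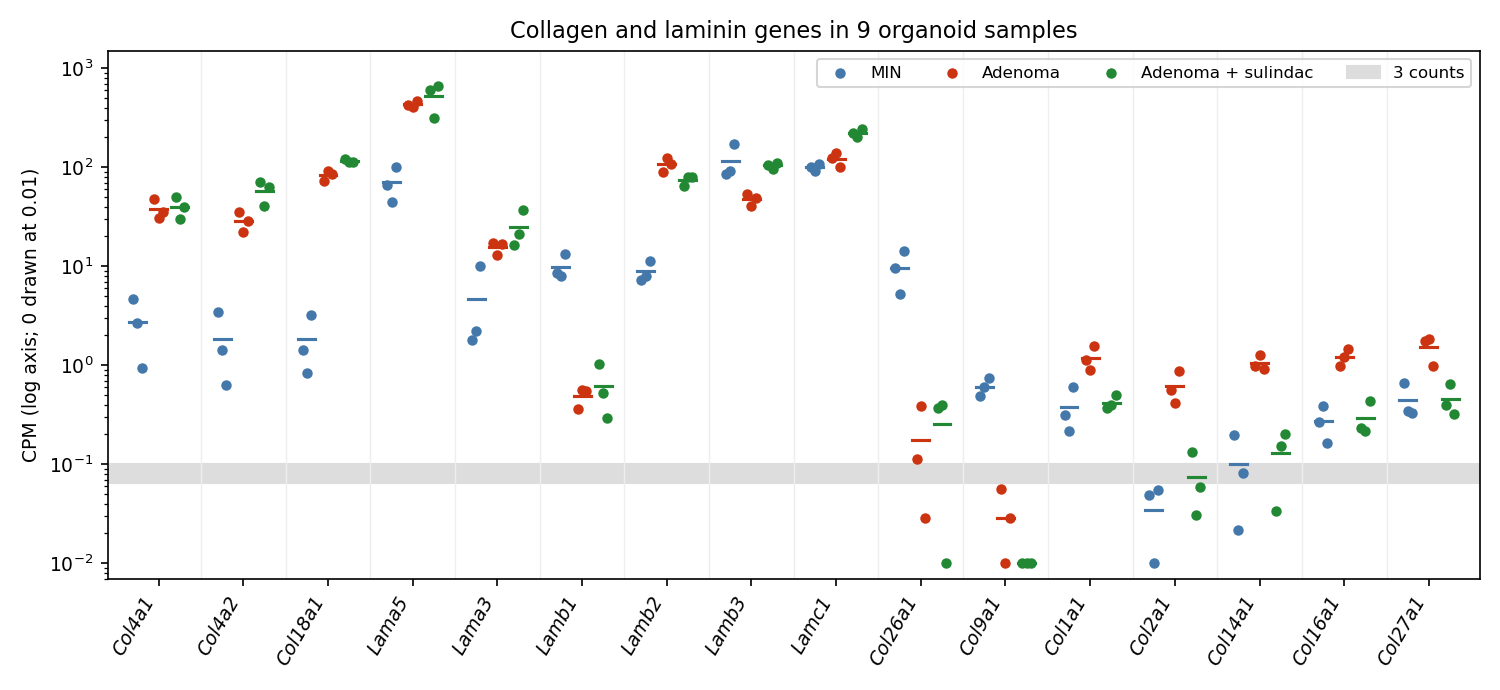
Levels of collagen and laminin genes that passed the test in at least 1 comparison or averaged at least 10 CPM in a group, in CPM on a log axis, with 1 point per sample, a short line at the mean of the 3 samples of each group, and 0 drawn at 0.01. Col18a1, Col4a1, Col4a2, Lama5 and Lamb2 lie higher in Adenoma and Sulindac than in MIN, Lamb1, Col26a1 and Col9a1 lie lower, and the 5 genes at the right are highest in Adenoma at under 2 CPM; the grey band spans the CPM of 3 counts.

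Lama5, the alpha chain of the structural laminins, was the most abundant member in both adenoma groups, by counts and per kilobase. It had 2739, 2082 and 3671 counts in MIN, 15065, 14630 and 16064 in Adenoma, and 17986, 10260 and 22555 in Sulindac, which averaged 70.4 ± 27.9, 432.1 ± 28.9 and 523.2 ± 183.6 CPM (SD, n = 3). From MIN to Adenoma it rose 6.15-fold (log2 fold change 2.62 ± 0.27, SE; edgeR test, adjusted p = 5.7e-05). It accounted for 16.9% ± 2.38 of all member counts in MIN, 43.7% ± 2.25 in Adenoma and 38.4% ± 7.17 in Sulindac (SD, n = 3). Lama3, the alpha chain of the anchoring laminin, measured 1.78, 2.22 and 10.1 CPM in MIN, 17.2, 12.9 and 16.7 CPM in Adenoma, and 16.3, 21.1 and 37.3 CPM in Sulindac. Its log2 fold change of 1.74 ± 0.58 did not pass the threshold (SE; edgeR test, adjusted p = 0.0337), although the groups did not overlap. The call turned on MIN replicate 3, without which the value was 2.96 (edgeR test, adjusted p = 4.15e-05).

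The beta chains moved in opposite directions between MIN and Adenoma. Lamb2, a beta chain of the structural laminins, measured 7.28, 7.93 and 11.3 CPM in MIN and 90.0, 123.5 and 107.2 CPM in Adenoma, a rise of 3.60 ± 0.20 on the log2 scale or 12.1-fold (SE; edgeR test, adjusted p = 1.87e-06). Lamb1, the alternative beta chain of the structural laminins, measured 8.44, 7.95 and 13.2 CPM in MIN and 0.365, 0.559 and 0.549 CPM in Adenoma, where it had 13 to 20 counts. It was 19.9-fold lower (log2 fold change -4.32 ± 0.31, SE; edgeR test, adjusted p = 7.53e-06). Both calls held without any 1 sample. Lamb3, the beta chain of the anchoring laminin, measured 86.3, 92.4 and 171.1 CPM in MIN and 53.8, 40.7 and 48.8 CPM in Adenoma. It was 2.44-fold lower (log2 fold change -1.28 ± 0.26, SE; edgeR test, adjusted p = 0.00289), a call lost without Adenoma replicate 2 (-1.18, edgeR test, adjusted p = 0.0117) or without Adenoma replicate 3 (-1.30, edgeR test, adjusted p = 0.0196).

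Expressed per kilobase and as a share of the 3 beta chains, Lamb3 made up 87.5% ± 1.37 in MIN, 29.4% ± 6.11 in Adenoma and 56.2% ± 3.75 in Sulindac. Lamb2 made up 7.48% ± 0.931, 70.4% ± 6.09 and 43.6% ± 3.86, and Lamb1 5.07% ± 0.537, 0.198% ± 0.033 and 0.226% ± 0.149 (SD, n = 3). The leading beta transcript was therefore Lamb3 in all 3 MIN samples, Lamb2 in all 3 Adenoma samples and Lamb3 again in all 3 Sulindac samples. Summed over the 3 genes, the beta chains were at 20.1 ± 7.80 CPM per kilobase in MIN, 24.8 ± 1.77 in Adenoma and 28.1 ± 1.58 in Sulindac. The count ratio of Lamb2 to Lamb1 was 0.906 ± 0.0789 in MIN and 220.8 ± 25.7 in Adenoma, a difference of 7.93 on the log2 scale with no overlap. An exact two-sided permutation test of 3 against 3 samples gave p = 0.10, the smallest this design allows, and an adjusted p of 0.25 over the 10 ratio tests run.

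**Figure D2:**
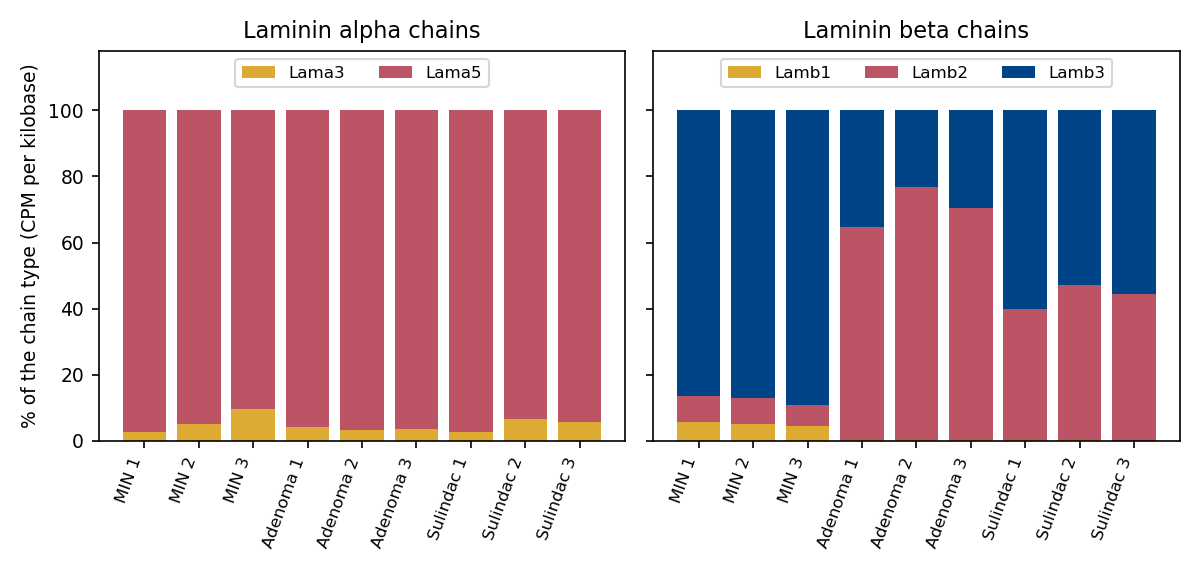
Share of each alpha and beta laminin chain among the chains of its type, in percent of the summed CPM per kilobase, with 1 stacked bar per sample. Lamb3 leads the beta chains in the MIN samples with 86.4% to 89.0%, Lamb2 leads in the Adenoma samples with 64.4% to 76.6%, and Lamb3 leads in the Sulindac samples with 52.8% to 60.2%. Lama5 holds over 90% of the alpha chains in every sample.

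Lamc1, the gamma chain of the structural laminins, measured 99.6, 92.3 and 108.2 CPM in MIN and 124.3, 137.7 and 100.2 CPM in Adenoma (log2 fold change 0.27 ± 0.14, SE; edgeR test, adjusted p = 0.123). The groups overlapped, and the difference did not pass the threshold.

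To show the regions next to the starts of the genes with the clearest calls, the bases that precede the RefSeq start were read on the gene's own strand, leaving out every base that GENCODE M21 annotates as exon. Windows of the RefSeq promoter table (build GRCm38.p6) were found for 40 of the 55 members. Col18a1, Lama5 and Lamb2, which rose in Adenoma, are shown with Lamb1, which fell. For Col18a1 only the start at chr10:77166530 is shown. The window of another start, 52825 bases away, had too short a stretch outside exons. Capitals mark the GC box GGGCGG or its reverse complement, the core of the Sp1 site.
Col18a1 (chr10:77166549-77166780, minus strand): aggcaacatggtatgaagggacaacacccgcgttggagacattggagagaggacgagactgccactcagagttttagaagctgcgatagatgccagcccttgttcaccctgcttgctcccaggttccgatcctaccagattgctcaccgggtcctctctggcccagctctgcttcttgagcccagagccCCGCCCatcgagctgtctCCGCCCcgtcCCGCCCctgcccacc
Lama5 (chr2:180225860-180226109, minus strand): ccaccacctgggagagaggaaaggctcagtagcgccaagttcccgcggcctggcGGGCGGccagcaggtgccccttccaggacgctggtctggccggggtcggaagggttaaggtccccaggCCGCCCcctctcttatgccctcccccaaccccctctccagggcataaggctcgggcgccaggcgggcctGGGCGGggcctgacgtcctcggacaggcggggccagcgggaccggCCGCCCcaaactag
Lamb1 (chr12:31265043-31265233, plus strand): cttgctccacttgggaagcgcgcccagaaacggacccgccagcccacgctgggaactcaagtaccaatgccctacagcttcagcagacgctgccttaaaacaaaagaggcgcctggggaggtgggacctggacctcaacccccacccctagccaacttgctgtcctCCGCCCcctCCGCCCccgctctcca
Lamb2 (chr9:108479612-108479735, plus strand): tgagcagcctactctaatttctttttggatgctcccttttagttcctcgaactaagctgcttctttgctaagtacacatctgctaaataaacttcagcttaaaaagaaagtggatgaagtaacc
Col18a1 held 3 GC boxes in 232 bases, Lama5 held 4 in 250, Lamb1 held 2 in 191 and Lamb2 held none in 124, with no overlap between boxes, and the last base printed lies 19, 1, 60 and 127 bases before the start. The GC content was 60.8%, 72.4%, 63.9% and 37.9%. Over all 32851 windows of the table, the stretch at the same distance from the start held at least 1 GC box in 30.1%, 32.7%, 23.1% and 13.3%. Neither the AP-1 motif TGANTCA nor the TCF/LEF core CTTTGA, searched on both strands, was found in any of these 4 stretches, and the stretch matched to Lama5 held them in 6.75% and 13.8% of all windows. A match is a string of letters and not a site in use. The starts of Col4a1 and Col4a2 lie 21 bases apart, head to head on opposite strands, so that the pair shares its upstream region, and their windows lie within each other's first exons and are not printed.

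Col26a1 and Col9a1 were lower in Adenoma. Col26a1, a secreted collagen, measured 9.54, 5.21 and 14.2 CPM in MIN and 0.112, 0.391 and 0.0289 CPM in Adenoma, from 244 to 521 counts against 1 to 14. It was 52.9-fold lower (log2 fold change -5.72 ± 0.65, SE; edgeR test, adjusted p = 0.000111), and -7.01 without Adenoma replicate 2. Sulindac samples held 11, 13 and 0 counts. Col9a1, a chain of the fibril-associated type IX collagen of cartilage, had 20, 28 and 27 counts in MIN, 2, 0 and 1 in Adenoma and 0 in all 3 Sulindac samples. The summed counts per library size were 21.3 times higher in MIN than in Adenoma (95% exact interval 7.0 to 105.4, for counting error only), and the edgeR test gave an adjusted p of 0.000454. The call held without any 1 sample, with a log2 fold change of -5.12 without Adenoma replicate 1 against -4.27 with all samples. Neither gene's samples overlapped between MIN and the adenoma groups.

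The other 5 collagens that were called were low in every group and highest in Adenoma. Col2a1, the main fibrillar collagen of cartilage, had 2, 0 and 2 counts in MIN, 20, 15 and 30 in Adenoma and 4, 1 and 2 in Sulindac. Col14a1, a fibril-associated collagen, had 8, 1 and 3 counts, then 35, 45 and 32, then 1, 5 and 7. Col16a1, another fibril-associated collagen, had 11, 18 and 6 counts, then 35, 43 and 50, then 7, 7 and 15. In each of these genes every Adenoma sample lay above all samples of the other groups. Col27a1, a fibrillar collagen, had 27, 16 and 12 counts in MIN, 62, 65 and 34 in Adenoma and 12, 21 and 11 in Sulindac. Col1a1, a chain of the type I collagen of fibroblasts, had 13, 10 and 22 counts, then 40, 32 and 54, then 11, 13 and 17. Its partner chain Col1a2 and the type III chain Col3a1 had 0 counts in all 9 samples. None of the 5 genes exceeded 65 counts in any sample or averaged above 1.51 CPM in any group.

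From MIN to Adenoma, Col14a1 was 10.6-fold higher (log2 fold change 3.4 ± 0.54, SE; edgeR test, adjusted p = 0.000829) and Col16a1 4.34-fold higher (2.12 ± 0.37, SE; edgeR test, adjusted p = 0.00145). Summed Col2a1 counts per library size were 19.1 times higher in Adenoma (95% exact interval 7.11 to 72.2, for counting error only; edgeR test, adjusted p = 0.000911). These 3 calls held without any 1 sample, although Col14a1 was at 4.34 without MIN replicate 1 and the log2 fold change of Col2a1 was 3.49 without MIN replicate 2, against 4.12 with all samples. Col27a1 was 3.41-fold higher (1.77 ± 0.40, SE; edgeR test, adjusted p = 0.00522), a call lost without MIN replicate 2, MIN replicate 3, Adenoma replicate 1 or Adenoma replicate 2, where it was 1.60, 1.61, 1.66 and 1.62 (edgeR test, largest adjusted p = 0.0251). Col1a1 narrowly missed the threshold at 1.68 ± 0.43 (SE; edgeR test, adjusted p = 0.0101), and still missed it with the size factors of DESeq2 (1.67, edgeR test, adjusted p = 0.0103) and in 5 of the 6 fits without 1 sample. It passed without MIN replicate 3 (2.16, edgeR test, adjusted p = 0.0039), with library size alone (1.81, edgeR test, adjusted p = 0.00613), without the low-count filter (edgeR test, adjusted p = 0.00779), with at least 10 counts in every sample (edgeR test, adjusted p = 0.00894), in the single fit of all 9 samples (edgeR test, adjusted p = 0.00393) and in DESeq2 (DESeq2 Wald test, adjusted p = 0.00489).

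The fibroblast marker genes were looked at beside these low collagens. Of 9 such genes, Dcn, Lum and Thy1 had 0 counts in all samples. Pdgfrb had 127 to 176 counts in MIN and at most 1 in the adenoma groups, and Pdgfra 5 to 8 in MIN, 25 to 39 in Adenoma and 12 to 20 in Sulindac. Postn had 2 to 9 counts in MIN and 0 in both adenoma groups, and Fap 6 to 12 in MIN, at most 2 in Adenoma and at most 3 in Sulindac. The summed level of the list was 7.11 to 8.78 CPM in MIN, 126.7 to 291.9 in Adenoma and 22.4 to 37.5 in Sulindac. In MIN most of it came from Vim and Pdgfrb, which averaged 3.66 and 3.57 CPM. In Adenoma it came mostly from Vim (174.5 CPM), and in Sulindac mostly from Fn1 (24.1 CPM, against 5.02 for Vim). Vim, the intermediate filament of mesenchymal cells, had 107 to 196, 3751 to 9312 and 79 to 278 counts in MIN, Adenoma and Sulindac. Fn1, the matrix protein fibronectin, had 3 to 8, 730 to 1094 and 574 to 1131 counts. The part of fibroblast-like RNA in the low collagens was not tested. The summed level of 5 smooth muscle markers stayed at or below 2.02 CPM and that of 5 endothelial markers at or below 7.61 CPM in every sample. The 5 leukocyte markers reached at most 4.09 CPM and the 3 glial markers at most 1.16 CPM, with Sox10 at 0. Itgam made up most of the leukocyte sum in MIN, with 148 to 159 counts. It was lower in Adenoma, with 4 to 13 counts (edgeR test, adjusted p = 3.7e-05). The endothelial Pecam1 was lower too, with 15 to 18 counts against 2 to 4 (edgeR test, adjusted p = 0.00312). The Pecam1 call held in 2 of the 6 fits without 1 sample. The smooth muscle Des was higher in Adenoma, with at most 1 count against 12 to 33 (edgeR test, adjusted p = 0.00103). Epithelial markers were at 5738 to 8258 CPM in MIN, 3341 to 4352 in Adenoma and 4584 to 5501 in Sulindac, and 6 of the 8 were lower in Adenoma than in MIN.

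The remaining members tested did not pass the threshold in any comparison. Between MIN and Adenoma, Col9a3 gave a log2 fold change of 0.97, Col20a1 of 0.82, Col11a2 of -0.39 and Col7a1, the anchoring fibril collagen of skin, of -0.39 (edgeR test, adjusted p = 0.0764, 0.304, 0.377 and 0.530). Col20a1 had 84, 57 and 322 counts in MIN and 210, 219 and 313 in Adenoma, and the groups overlapped through MIN replicate 3. Without that sample the value was 2.11 (edgeR test, adjusted p = 0.0014). The other 3 stayed at or below 107 counts in every sample.

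**Figure D3:**
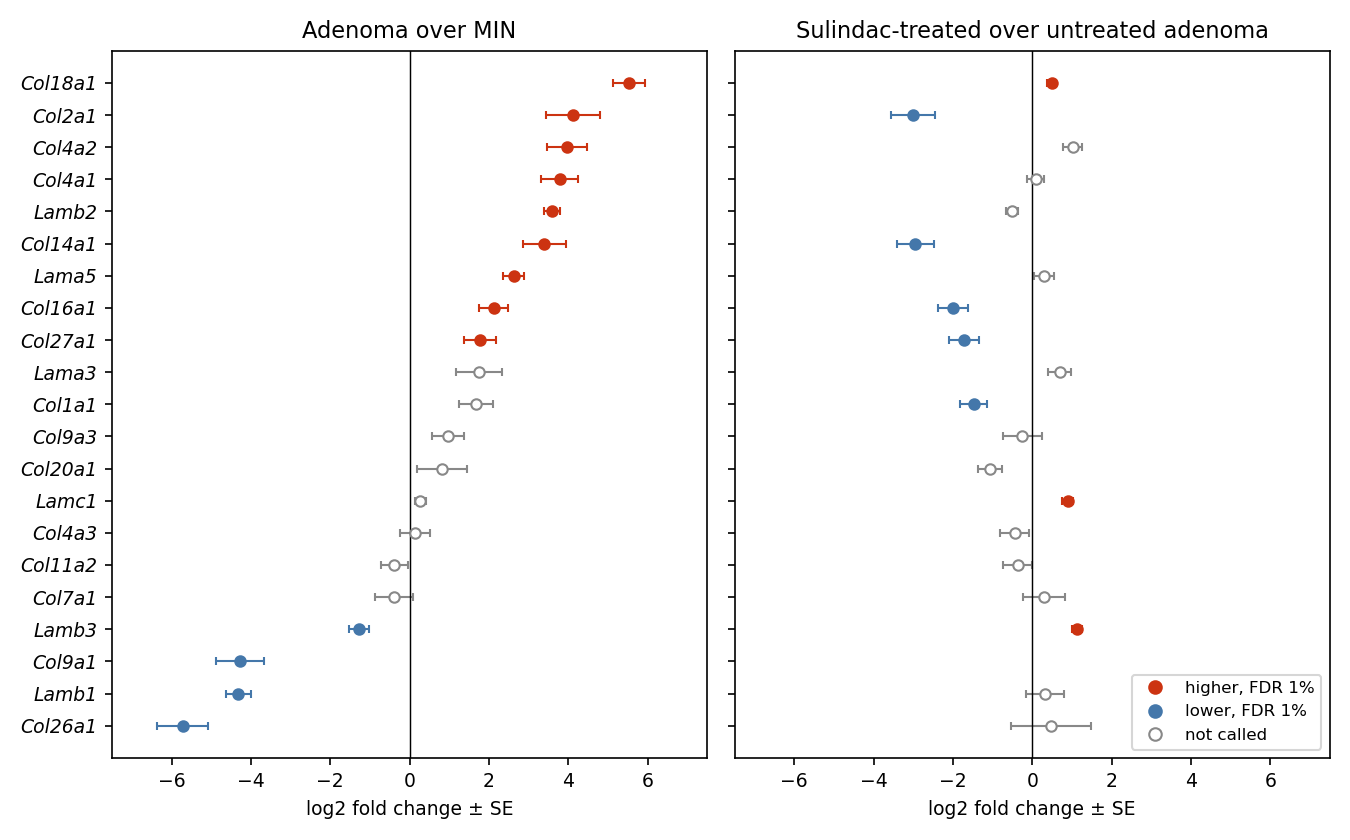
Log2 fold change with its SE of collagen and laminin genes tested, Adenoma over MIN at the left and Sulindac over Adenoma at the right, in the order of the left panel, with filled points for those past an FDR of 1%. Col18a1, Lamb2, Col4a1 and Col4a2 lie far to the right of 0 at the left and within about 1 of it at the right, and the low collagens Col2a1, Col14a1, Col16a1 and Col27a1 lie on opposite sides of 0. Both panels use the same Adenoma samples.

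The comparison of Sulindac with Adenoma asks what the drug changed in adenoma organoids. Of 21 members tested, 4 were higher (19.0%, against 8.32% of the 12962 genes tested) and 5 lower (23.8%, against 9.10%). Col14a1, Col16a1, Col2a1, Col9a3 and Lamb1 passed the filter on low counts through 1 group alone, and the first 3 of these 5 were called lower, so that the share of members lower carries this selection. The median log2 fold change of the members was 0.09, against -0.01 for all genes, and it ranged from -0.25 without Sulindac replicate 1 to 0.11 without Sulindac replicate 2. Among the genes that rose were Lamb3, Lamc1 and Col18a1, which encode basement membrane chains. The 5 that fell were the low collagens Col1a1, Col2a1, Col14a1, Col16a1 and Col27a1. The same Adenoma samples enter this comparison and the previous one, so the results of the 2 are not independent. The split depended on the scaling, with 5 higher and 4 lower under the size factors of DESeq2 in edgeR, 2 higher and 6 lower with library size alone, which moved the median of all genes to -0.18, and 5 higher and 7 lower in DESeq2's Wald test. Leaving out 1 sample left 1 to 4 members higher and 0 to 4 lower.

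Lamb3 rose from between 40.7 and 53.8 CPM in Adenoma to 106.3, 96.8 and 109.4 CPM in Sulindac, 2.19-fold (log2 fold change 1.13 ± 0.12, SE; edgeR test, adjusted p = 0.000475), and this call held without any 1 sample. Lamc1 measured 223.0, 202.2 and 244.3 CPM in Sulindac, 1.86-fold higher (0.89 ± 0.14, SE; edgeR test, adjusted p = 0.00243). For both genes every Sulindac sample lay above every Adenoma sample. The call of Lamc1 was lost without Sulindac replicate 1 (0.89, edgeR test, adjusted p = 0.0111) or replicate 3 (0.82, edgeR test, adjusted p = 0.0135). Lama3 was at 0.69 ± 0.28 (SE; edgeR test, adjusted p = 0.0923), and the groups overlapped.

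Lamb2 measured 64.0, 79.3 and 80.5 CPM in Sulindac, all below the Adenoma samples. Its log2 fold change of -0.51 ± 0.14 did not pass the threshold (SE; edgeR test, adjusted p = 0.0228), but did with library size alone (-0.68, edgeR test, adjusted p = 0.00761) and in DESeq2 (-0.50, DESeq2 Wald test, adjusted p = 0.00704). Lamb3 counts per Lamb2 count went from 12.9 ± 1.93 in MIN to 0.461 ± 0.134 in Adenoma and 1.41 ± 0.225 in Sulindac (SD, n = 3). Neither step showed overlap, with log2 differences of -4.84 and 1.65 (exact two-sided permutation test, p = 0.10 for each, adjusted p = 0.25 over 10 tests). Lamb1 stayed low after sulindac, with 31, 17 and 10 counts (0.32 ± 0.48, SE; edgeR test, adjusted p = 0.646), and Lama5 gave 0.29 ± 0.25 (SE; edgeR test, adjusted p = 0.401), with both genes' groups overlapping.

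After sulindac, Col4a1 and Col4a2 gave values of different size. Col4a1 gave a log2 fold change of 0.09 ± 0.21 (SE; edgeR test, adjusted p = 0.786; -0.08 with library size alone) with overlapping groups, whereas all 3 Sulindac samples lay above the Adenoma samples for Col4a2. The value for Col4a2, 1.02 ± 0.24, missed the threshold (SE; edgeR test, adjusted p = 0.0113), and passed it with the size factors of DESeq2 (1.04, edgeR test, adjusted p = 0.00965) and in DESeq2 (1.04, DESeq2 Wald test, adjusted p = 8.78e-05). It also passed without Adenoma replicate 1 (1.2, edgeR test, adjusted p = 0.00901) and without Sulindac replicate 2 (1.24, edgeR test, adjusted p = 0.00602). With the replicate number as a block it passed as well (1.01, edgeR test, adjusted p = 0.00139). A ratio within a sample does not depend on the scaling. Col4a2 counts per Col4a1 count were 0.742, 0.528 and 0.676 in MIN, 0.740, 0.712 and 0.817 in Adenoma and 1.41, 1.33 and 1.58 in Sulindac. The ratio was higher in all 3 Sulindac samples than in any other sample, with a log2 difference from Adenoma of 0.93 (exact two-sided permutation test, p = 0.10, adjusted p = 0.25 over 10 tests). Between Adenoma and MIN the ratios overlapped (exact two-sided permutation test, p = 0.30).

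**Figure D4:**
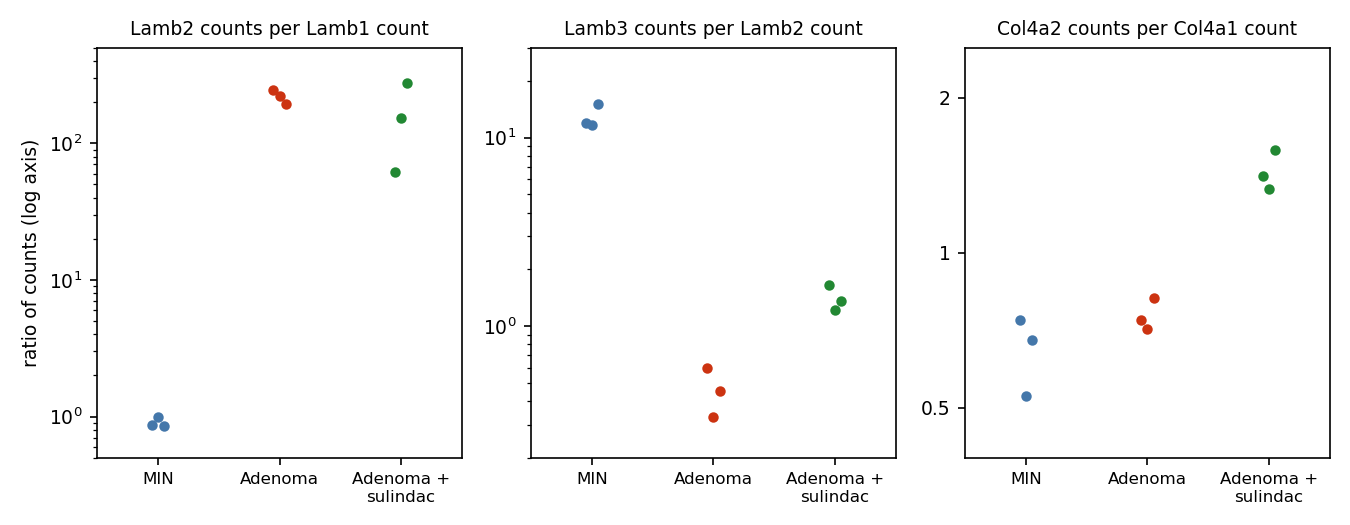
Ratios of the counts of 2 genes within a sample, on log axes, with 1 point per sample: Lamb2 per Lamb1, Lamb3 per Lamb2 and Col4a2 per Col4a1. Counts are not corrected for gene length, so a ratio of 1 does not mean equal levels per kilobase. Lamb2 per Lamb1 lies at or below 1 in MIN and at 61.9 to 276.6 in the adenoma groups, Lamb3 per Lamb2 falls to 0.330 to 0.598 in Adenoma and lies at 1.22 to 1.66 in Sulindac, and Col4a2 per Col4a1 lies above 1 in the Sulindac samples alone.

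Col18a1 was 1.40-fold higher in Sulindac than in Adenoma (log2 fold change 0.49 ± 0.11, SE; edgeR test, adjusted p = 0.00993). This was just within the threshold, and the call was lost in each of the 6 fits without 1 sample, where the value was 0.41 to 0.56 (edgeR test, adjusted p from 0.0101 to 0.0456). It was also lost with library size alone (0.32, edgeR test, adjusted p = 0.0521), in the single fit of all 9 samples (0.48, edgeR test, adjusted p = 0.21) and with at least 10 counts asked of every sample (0.47, edgeR test, adjusted p = 0.0112). The replicate number as a block ended the call too (0.49, edgeR test, adjusted p = 0.0249).

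The 5 low collagens fell after sulindac. Col14a1 was 7.72-fold lower than in Adenoma (log2 fold change -2.95 ± 0.47, SE; edgeR test, adjusted p = 0.00239), Col2a1 8.07-fold lower (-3.01 ± 0.56, SE; edgeR test, adjusted p = 0.00448) and Col16a1 4.01-fold lower (-2.00 ± 0.37, SE; edgeR test, adjusted p = 0.00434). Col27a1 was 3.32-fold lower (-1.73 ± 0.38, SE; edgeR test, adjusted p = 0.00957) and Col1a1 2.80-fold lower (-1.48 ± 0.33, SE; edgeR test, adjusted p = 0.00975). Without Sulindac replicate 2 none of the 5 calls held, although 7 members were lower there at an unadjusted p under 0.05, with log2 fold changes of -3.04 for Col14a1, -2.64 for Col2a1, -1.80 for Col16a1, -2.05 for Col27a1 and -1.43 for Col1a1 (edgeR test, adjusted p from 0.0115 to 0.0335). The Col1a1 call was lost in each of the 6 fits without 1 sample (edgeR test, largest adjusted p = 0.0438), and that of Col27a1 in 5 of the 6, the exception being the fit without Adenoma replicate 3 (edgeR test, largest adjusted p = 0.0442). Col16a1 was also lost without Adenoma replicate 2 or Sulindac replicate 1, and Col2a1 without Sulindac replicate 3 (edgeR test, adjusted p = 0.0151, 0.0236 and 0.0260). Col2a1 was at -3.67 without Sulindac replicate 1, with the call held. Over the same step Vim fell by 5.11 on the log2 scale (edgeR test, adjusted p = 0.000288; -5.70 without Sulindac replicate 2) and Fn1 was at -0.04 (edgeR test, adjusted p = 0.918). Their relation to the low collagens was not tested. Between Sulindac and MIN, Col1a1 gave 0.18 ± 0.44 and Col27a1 0.03 ± 0.43 (SE; edgeR test, adjusted p = 0.734 and 0.953), and Col2a1, Col14a1 and Col16a1 were too low to be tested.

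Sulindac and MIN differ in tissue of origin and in treatment, which cannot be told apart in this comparison. Of 19 members tested, 6 were higher in Sulindac (31.6%, against 23.0% of 13551 genes) and 3 lower (15.8%, against 26.8%). Col1a1, Col26a1, Col9a1 and Col9a3 passed the filter through 1 group alone, and 2 of these 4, Col26a1 and Col9a1, were called lower. The median log2 fold change was 0.18, against -0.03 for all genes, and it ranged from -0.11 without MIN replicate 2 to 0.69 without MIN replicate 3. Higher were Col18a1 (6.02 ± 0.38), Col4a2 (4.97 ± 0.50), Col4a1 (3.85 ± 0.47), Lamb2 (3.08 ± 0.18), Lama5 (2.90 ± 0.36) and Lamc1 (1.16 ± 0.10), with SE in log2 units and a largest adjusted p of 0.00019 in the edgeR test. Lower were Col26a1 (-5.25 ± 0.69), Lamb1 (-4.02 ± 0.41) and Col9a1, which with 0 counts in Sulindac was at least 6.53-fold lower against a floor of 3 counts per library (edgeR test, largest adjusted p = 0.000344). These 9 calls held without any 1 sample. The values that moved by over 1.5-fold without 1 sample were those of Col18a1 without MIN replicate 3 (6.69), Col4a2 without MIN replicate 1 (5.78), Col26a1 without Sulindac replicate 3 (-4.64) and Lamb1 without Sulindac replicate 1 (-4.61).

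Lamb3 was close to its MIN level in Sulindac, at 104.2 ± 6.56 against 116.6 ± 47.3 CPM (SD, n = 3; log2 fold change -0.16 ± 0.24, SE; edgeR test, adjusted p = 0.57), and a difference of this size was not detectable at the spread of the MIN samples. Lama3 (2.42 ± 0.64, SE; edgeR test, adjusted p = 0.0104) missed the threshold. Without MIN replicate 3 Lama3 passed, at 3.63 (edgeR test, adjusted p = 0.000583). It also passed with the replicate number as a block (2.7, edgeR test, adjusted p = 0.000494). Summed per kilobase, the alpha chains were at 6.62 ± 2.85, 39.4 ± 2.68 and 48.3 ± 16.6 CPM in MIN, Adenoma and Sulindac (SD, n = 3). The alpha sum was below the beta sum in every MIN sample and above it in every Adenoma sample.

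The genes that act on collagens and laminins were read from lists chosen by function. Over all genes tested, 18.5% were higher and 20.1% lower in Adenoma than in MIN. In Sulindac against Adenoma these shares were 8.32% and 9.10%, and no list was tested against them. Of 16 enzymes and chaperones that modify and fold collagen, 11 were tested, and 3 were higher and 3 lower in Adenoma than in MIN. The lysyl hydroxylase Plod1 rose from 6.66 ± 0.498 to 56.0 ± 8.42 CPM and its relative Plod2 fell from 6.95 ± 2.03 to 0.374 ± 0.371 (SD, n = 3; log2 fold change 3.07 and -4.20, edgeR test, adjusted p = 8.22e-07 and 0.000445; Plod2 at -5.32 without Adenoma replicate 2). P4hb, the beta subunit of prolyl 4-hydroxylase, fell by 0.87 on the log2 scale (edgeR test, adjusted p = 0.000511). After sulindac 0 of the 11 passed the threshold in the edgeR test, 6 had an unadjusted p under 0.05, and DESeq2's Wald test called 2.

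Of 14 genes that process and crosslink collagen, 7 were tested between MIN and Adenoma and 3 rose in Adenoma. The lysyl oxidase relative Loxl4 rose from 0.129 ± 0.00729 to 39.3 ± 5.26 CPM, Bmp1, which removes the C-terminal propeptide of fibrillar collagens, from 2.85 ± 0.135 to 22.7 ± 3.11, and Loxl2 from 4.14 ± 0.547 to 18.7 ± 2.28 (SD, n = 3; edgeR test, largest adjusted p = 1.31e-05). After sulindac 3 of 8 tested fell, namely Bmp1 to 9.53 ± 2.36 CPM, Loxl2 to 11.7 ± 0.772 and the transglutaminase Tgm2 from 123.5 ± 13.4 to 66.5 ± 11.1 (SD, n = 3; edgeR test, largest adjusted p = 0.00587). The Loxl2 call was lost without Adenoma replicate 2 or any 1 Sulindac sample (log2 fold change -0.70 to -0.57, edgeR test, largest adjusted p = 0.0298), that of Tgm2 without Sulindac replicate 1 or 3 (-0.83 and -0.81, edgeR test, largest adjusted p = 0.0141), and that of Bmp1 without Sulindac replicate 3 (-1.22, edgeR test, adjusted p = 0.0131). Loxl4 was at 54.5 ± 8.66 CPM in Sulindac.

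Of 18 partners in the basement membrane, 12 were tested between MIN and Adenoma, and 3 rose and 5 fell in Adenoma. The nidogens, which bridge laminin and type IV collagen, were at or near 0, with 224 to 423 counts of Nid1 and 751 to 840 of Nid2 in MIN against 0 and at most 4 in Adenoma (edgeR test, adjusted p = 5.89e-05 and 1.03e-06). In Sulindac Nid1 was at 0 and Nid2 at no more than 2 counts. The integrin ligand Npnt rose from 19.6 ± 2.96 to 84.7 ± 14.6 CPM, Smoc1, a secreted calcium-binding protein, from 1.73 ± 0.546 to 16.5 ± 1.33, and the proteoglycan Agrn from 215.8 ± 56.0 to 416.0 ± 27.7 (SD, n = 3; edgeR test, largest adjusted p = 0.00216). After sulindac 1 of 9 tested rose, Npnt to 138.3 ± 4.87 CPM, and 1 fell, Ntn4, a netrin that binds laminin, from 2.38 ± 1.19 to 0.169 ± 0.148 (SD, n = 3; edgeR test, adjusted p = 0.00507 and 0.00391). The Npnt call was lost without Adenoma replicate 2 or any 1 Sulindac sample (log2 fold change 0.68 to 0.75, edgeR test, largest adjusted p = 0.023). The Ntn4 call was lost without Adenoma replicate 2, Sulindac replicate 2 or Sulindac replicate 3 (-3.26, -4.22 and -4.03, edgeR test, largest adjusted p = 0.0187). In Adenoma against MIN, that of Agrn was lost without MIN replicate 1 (0.89, edgeR test, adjusted p = 0.0107).

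Among 18 receptors and their anchors, 16 were tested, and 4 rose and 6 fell in Adenoma. The laminin receptors Itga7, Bcam and Itgb4 rose, to 35.8 ± 14.7, 112.8 ± 8.93 and 296.6 ± 12.9 CPM (log2 fold change 3.27, 2.45 and 1.25). The collagen-binding integrin chains Itga1 and Itga2 and the hemidesmosome linker Dst fell, to 0.696 ± 0.230, 15.8 ± 6.22 and 12.7 ± 2.73 CPM (log2 fold change -5.10, -2.73 and -2.25; edgeR test, largest adjusted p of the 6 genes 0.000204). After sulindac Itga3, an alpha chain of laminin receptors, rose to 176.5 ± 10.8 CPM and Dst to 25 ± 5.88 (SD, n = 3; edgeR test, adjusted p = 0.00431 and 0.0099). Each call held in 2 of the 6 fits without 1 sample. That of Itga3 was lost without Adenoma replicate 1 or 2 or Sulindac replicate 1 or 3 (log2 fold change 0.49 to 0.55, edgeR test, largest adjusted p = 0.0245). That of Dst was lost without Adenoma replicate 2 or 3 or Sulindac replicate 1 or 3 (0.87 to 0.92, edgeR test, largest adjusted p = 0.0408).

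Of 15 proteases and inhibitors of matrix breakdown, 8 were tested between MIN and Adenoma, and 5 rose and 2 fell in Adenoma. The membrane-bound protease Mmp14 rose from 5.96 ± 1.86 to 117.0 ± 5.12 CPM and the inhibitor Timp2 from 3.41 ± 0.364 to 171.8 ± 21.7, while the inhibitor Timp3 fell from 6.36 ± 0.242 to 0.0187 ± 0.0162 (SD, n = 3; edgeR test, largest adjusted p = 1.14e-06). After sulindac 2 of 7 tested fell, Mmp7 from 704.3 ± 117.0 to 157.1 ± 31 CPM and Mmp14 to 53.6 ± 3.55 (SD, n = 3; edgeR test, adjusted p = 0.000148 and 0.000151).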

How the data were processed

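RNA-seq counts of 9 mouse organoid samples were analysed. The authors deposited 1 table of raw counts per gene symbol, without normalization. Their processing notes name mm9, Bowtie2 2.2.4 and RSEM without a role or order, and annotation and strand are not given in the sources used here. For MIN replicate 1, the last of its 3 columns adds up the other columns (its runs) in all 23955 rows, and this sum was used as 1 sample. Replicates are labelled by number, and the study calls them biological. Whether each came from a separate mouse is not stated, so p-values measure the spread between these samples.

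Counts were filtered with filterByExpr, scaled by TMM and tested with edgeR 4.0.16 (glmQLFit, robust, and glmQLFTest) in R 4.3.3, fitting the 6 samples compared, at an FDR of 1%, after a test on simulated data. The SE is the absolute log2 fold change over the root of F. Count ratios were compared by exact permutation tests in scipy 1.17.1. Alternatives were scaling by RLE (the size factors of DESeq2) or by library size alone, testing every gene or those with 10 or more counts in each sample, 1 fit of all 9 samples, a replicate block, the omission of each sample in turn, DESeq2 1.42.0 (Wald test) and an FDR of 5%. Exon lengths came from GENCODE M21 (GRCm38), not the authors' build, so lengths are approximate. Stretches of 50 bases shared with other genes made up at most 4.87% of any tested member. Genes were named where they passed the threshold in any comparison or averaged 10 CPM, and other lists by at most 3 genes per direction. One item among the members is counted in the totals and is not reported here. The members and lists were chosen with earlier results of these data known.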

Additional observations from a re-analysis of the deposited data

How the results depend on the processing

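In Adenoma against MIN and in Sulindac against MIN, the number of members past the threshold stayed within 1.5 times under every alternative, except that at least 10 counts in every sample, which leaves fewer genes tested, left 2 lower in the first and 1 lower in the second, against 4 and 3. In Sulindac against Adenoma, 4 were higher and 5 lower, against 2 higher with library size alone, 2 higher in the single fit of all 9 samples and 2 lower with at least 10 counts in every sample. Leaving out 1 sample gave 1 to 4 higher and 0 to 4 lower there, 8 to 12 higher and 3 to 4 lower in Adenoma against MIN, and 6 to 8 higher and 3 lower in Sulindac against MIN. Fitting 2 samples in a group assumes that they vary like the rest. Of the log2 fold changes of the genes named, 522 values under an alternative kept direction and side of the threshold, 44 fell short of it, 23 newly passed it and 11 changed sign. All sign changes were in values that had not passed the threshold. With library size alone, Col4a1 in Sulindac against Adenoma gave -0.08. With 1 sample left out, the ranges in Sulindac against Adenoma were -0.02 to 1.77 for Col26a1, -0.11 to 0.28 for Col4a1 and -0.28 to 0.66 for Lamb1, and in Sulindac against MIN -0.11 to 0.66 for Col1a1, -0.29 to 0.43 for Col27a1 and -0.34 to 0.21 for Lamb3. The cause of these shifts was not tested. Over all genes in Sulindac against Adenoma, 1078 were higher and 1179 lower, against 603 and 1983 with library size alone, 1778 and 1766 in DESeq2, and 423 to 1403 and 386 to 1488 with 1 sample left out. Library size alone moved the median of all genes to -0.18 there and to 0.125 in Adenoma against MIN.

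Whether the replicate numbers pair the samples is not settled by these data, and the main fits use no pairing. Same-numbered samples had correlations of their deviations of 0.097, 0.079 and 0.186 between Adenoma and MIN. Samples of different number had -0.14 to 0.071 there. Between Sulindac and Adenoma the same-numbered values were 0.254, 0.228 and -0.025, against -0.345 to 0.096 for different numbers. Between Sulindac and MIN they were -0.048, 0.322 and 0.199, against -0.269 to 0.103. With the replicate number as a block (replicate block), 10 members were higher and 4 lower in Adenoma against MIN, 4 and 4 in Sulindac against Adenoma, and 8 and 3 in Sulindac against MIN. In the first, Col1a1 newly passed (1.72, edgeR test, adjusted p = 0.00426). In the second, Col4a2 newly passed, and Col18a1 and Col1a1 were lost (edgeR test, adjusted p = 0.00139, 0.0249 and 0.0105). In the third, Lama3 newly passed (2.7, edgeR test, adjusted p = 0.000494). Depth limits the 33 members without a test and those at under 100 counts in every sample. Among the latter, the smallest change called was 2.80-fold, for Col1a1 in Sulindac against Adenoma. The smallest change that could pass was not computed.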
